A study of Saccharomyces cerevisiae with 83 samples.

Results

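The nuclear pore and import genes described here are 33 genes of Saccharomyces cerevisiae, taken by systematic name: the nucleoporins, GLE1, GLE2, MLP1, MLP2 and the import receptor genes KAP95 and SRP1. Of these, 30 had a row among the 4817 genes of each count table. NUP157, NUP188 and GLE1 are not analysed here. The row of SRP1, the importin alpha gene, held 0 counts in all 83 libraries, so 29 members were tested in each batch.

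The nuclear pore complex is a ring-shaped assembly set into the nuclear envelope through which proteins and RNA pass. A Y-shaped outer ring complex, an inner ring and a few membrane proteins form its scaffold. Nucleoporins with phenylalanine-glycine (FG) repeats fill the channel, a set of proteins on the cytoplasmic side acts in mRNA export, and a basket of filaments projects into the nucleus. KAP95 (importin beta) and SRP1 carry cargo with a classical nuclear localization signal through the channel, and many nucleoporins of yeast are essential for growth.

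Each haploid cell of the pools, all in the wild isolate background YPS1009, carried a centromeric plasmid with 1 barcoded yeast gene, and so an added low-copy source of that gene. Pools were grown in shake flasks at 30 °C in medium without histidine, with G418 to keep the plasmids and nourseothricin to keep amplified chromosomes, and were diluted afresh after 5 generations. Barcode abundance was compared between generation 5 or 10 and generation 0, the frozen stock left after inoculation. The series holds euploid strains and strains with an extra chromosome IV, VII, XII or XV, with or without the gene SSD1. Which strain number has which chromosome set or SSD1 allele is not stated in the labels used here, and the 9 strains go by their numbers. Batch 1 holds AGY1611, AGY1612, AGY1613 and AGY1614 at generations 10 and 0, with 4 cultures each (A to D) from 2 transformations, and which culture came from which transformation is not given. Batch 2 holds 3 replicates from 3 transformations. It covers AGY1859, AGY1862 and AGY1863 at generations 10 and 0, AGY1611, AGY1613 and AGY1860 also at generation 5, and AGY1861 at generations 5 and 0 only.

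Library totals were 457053 to 2993246 counts at generation 10 and 3237303 to 8351355 at generation 0 in batch 1. In batch 2 they were 561486 to 3506174 at generation 10, 452054 to 5409233 at generation 5 and 1298424 to 7559499 at generation 0. The mean count of a tested member per library at generation 0 was between 31.1 (NUP42) and 2766 (POM34) in batch 1 and between 21.6 (NUP42) and 1942 (POM34) in batch 2. Levels below are CPM, a count scaled to the TMM-adjusted library total as edgeR's cpm function does, and every change is relative to the other plasmids of the same pool. A member is called where the Benjamini-Hochberg adjusted p of edgeR's quasi-likelihood test over all entries was under 0.05, and the p measures only the spread between these libraries. Within a strain of batch 1, log2 ratios of cultures A with B, or C with D, had a mean Spearman correlation of 0.936 (8 pairs, over 4547 entries of shared pools), against 0.486 for A or B with C or D (16 pairs). Across batches, replicate 2 with A or B and replicate 3 with C or D of AGY1611 and AGY1613 had a mean of 0.941 (8 pairs), against 0.414 for the other 16 pairs, so the measurements of these 2 strains in both batches are not independent. Batch 1 counts are therefore also given after summing the closer cultures (A plus B, C plus D) to 2 samples per group.

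At generation 10 the members split in both directions. Over the 10 comparisons of strain and batch, 61 of 290 member tests were called lower (21.0%, against 16.7% of all entry tests) and 26 higher (8.97%, against 12% of all entry tests). NUP60, NUP120 and MLP1 made up 29 of the 61 lower calls. Without these genes, picked for their calls, 32 of 260 member tests were called lower (12.3%). NUP60 of the nuclear basket and NUP120 of the Y complex were called lower in all 10 comparisons, and MLP1 of the basket in 9 of 10. In all, 14 members were called only lower, 8 only higher and 3 (NUP100, NSP1 and NUP82) in both directions, while NUP57, NUP192, POM152 and NUP1 were never called, with unadjusted p under 0.05 in 1, 0, 2 and 3 of their 10 tests.

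**Figure D1:**
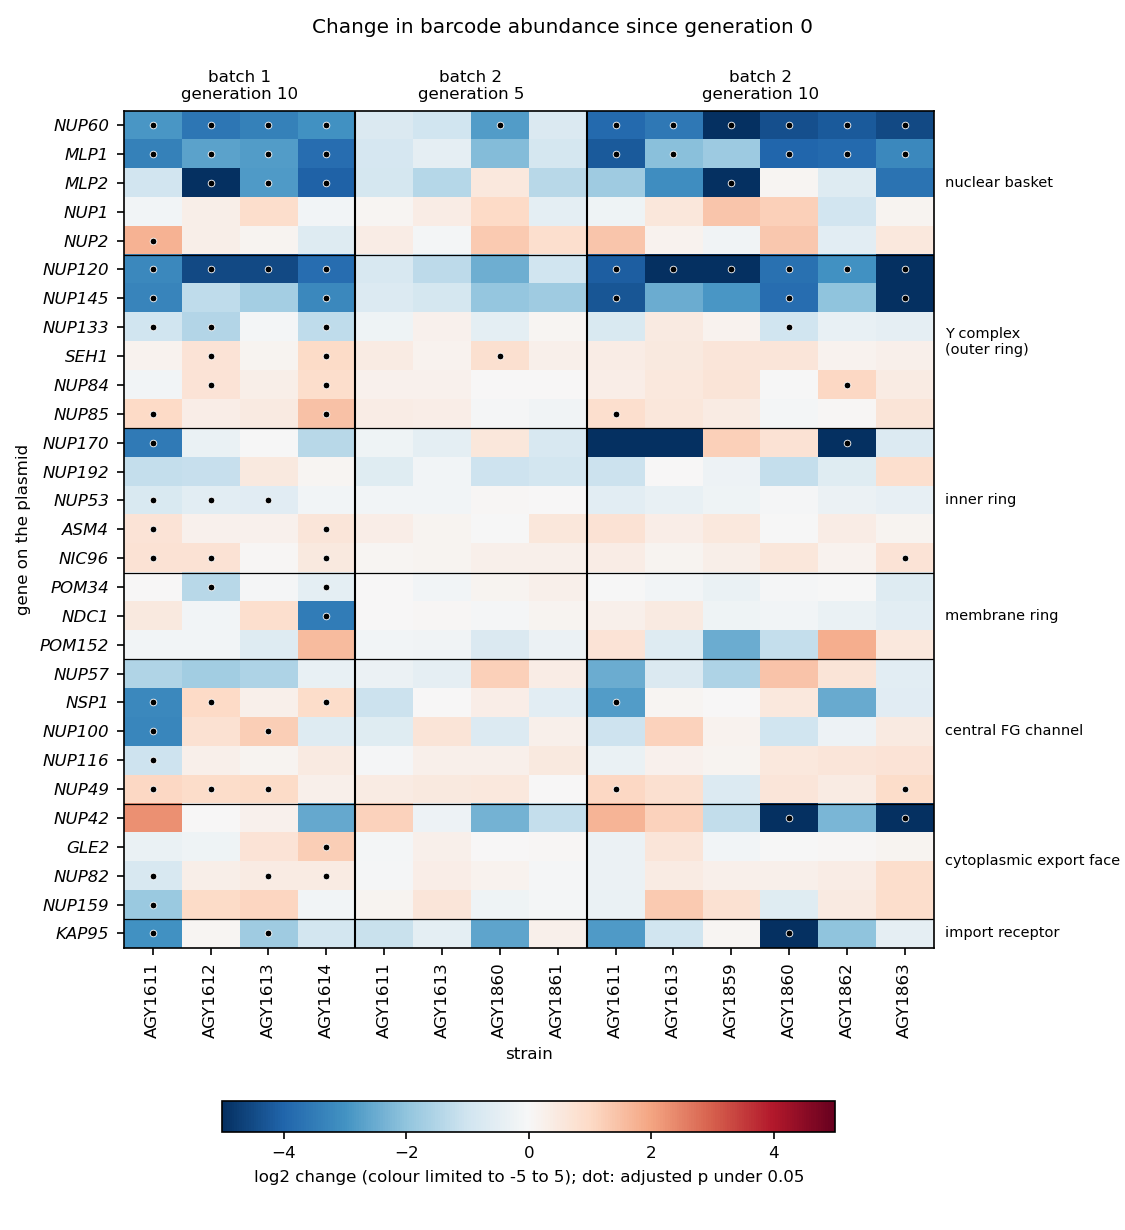
Log2 change in barcode abundance of the 29 tested members (rows, by subcomplex) in each strain, at generation 10 or 5 against generation 0 (columns, by batch and generation). Colour is limited to -5 to 5, and a dot marks an adjusted p under 0.05. NUP60 and NUP120 are called lower in all 10 generation 10 columns, and of the generation 5 columns that of AGY1860 holds dots.

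By strain, 13 members were called lower and 5 higher in AGY1611 of batch 1 (all entries: 23.8% lower, 24% higher, 47.8% either way), and the median log2 change was -0.79 over the members and 0.09 over all entries. In AGY1612, 7 were lower and 5 higher (all entries: 25.9%, 17.1% and 43.1%), with medians of 0.02 and 0.03. In AGY1613, 6 were lower and 3 higher (21.3%, 19.5% and 40.8%), with medians of 0.13 and 0.06. In AGY1614, 8 were lower and 8 higher (28.3%, 24.8% and 53.1%), with medians of -0.15 and 0.03. The member median lay below that of all entries by more than 0.5 only in AGY1611. With the cultures summed, the members called in AGY1611, AGY1612, AGY1613 and AGY1614 numbered 6, 6, 3 and 6, where 12.7%, 17.1%, 9.69% and 26.6% of all entries were called, and 34 of the 55 batch 1 calls were lost. The 21 that stayed were NUP60, NUP120 and MLP1 in all 4 strains, NUP100, KAP95 and NSP1 in AGY1611, MLP2, SEH1 and POM34 in AGY1612, and MLP2, NDC1 and SEH1 in AGY1614. Each other batch 1 member call against generation 0 described below was lost on summing. The SE and adjusted p of batch 1 given below without summing treat the 4 cultures as separate.

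In batch 2, 5 members were called lower and 2 higher in AGY1611 (all entries: 11.3% lower, 7.62% higher, 18.9% either way), 4 lower and 1 higher in AGY1862 (11.5%, 6.7% and 18.2%), and 5 lower and 2 higher in AGY1863 (13.5%, 4.04% and 17.5%). Members were called only lower in AGY1613 (3, where all entries had 7.01% lower, 4.35% higher and 11.4% either way), AGY1859 (3, where all entries had 9.35%, 5.18% and 14.5%) and AGY1860 (7, where all entries had 14.7%, 6.25% and 21%). In these 3 strains an unadjusted p under 0.05 was reached by 2, 3 and 4 higher members, and DESeq2 called 1 higher in each. With the replicate number as a block, which pairs the samples in AGY1859, AGY1860 and AGY1863, the member calls numbered 6, 8 and 10, and the share of all entries called under that block was 18%, 28.1% and 22.7%. Member medians in the 6 strains were between -0.32 (AGY1611) and 0.18 (AGY1613). Over all the calls of both batches, at generations 10 and 5, 59 of 89 held when any 1 library of the strain was left out, and the other 30 are marked below where they are described. In batch 1 the closer culture of the pair stays in, so this check can miss a call that rests on 1 pair.

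**Figure D2:**
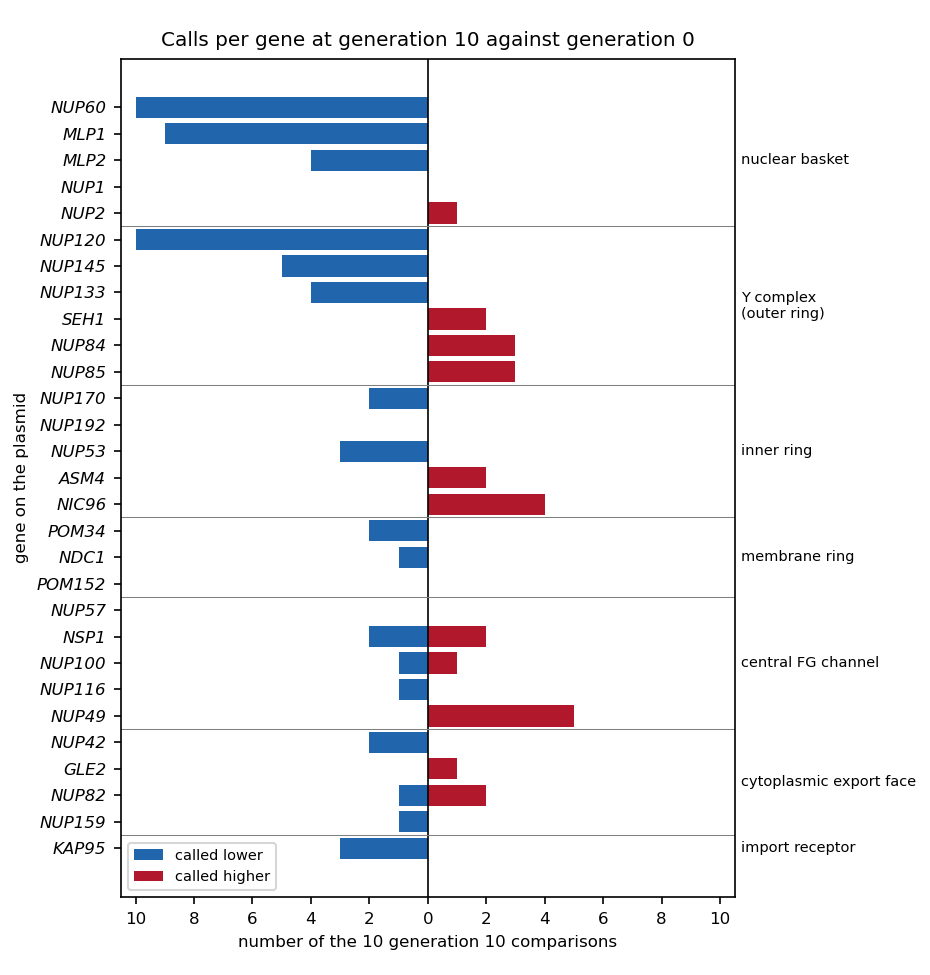
Number of the 10 generation 10 comparisons (x axis) in which each member (y axis) was called lower or higher. NUP60 and NUP120 have 10 lower calls, MLP1 has 9, and NUP49 has 5 higher calls.

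Of the 5 nuclear basket members, NUP60, MLP1 and MLP2 were called only lower, NUP2 was called higher in 1 comparison and NUP1 was not called. NUP60 (YAR002W), which tethers the basket filaments to the pore, fell in every strain of both batches. In batch 1 its CPM at generation 10 was 33.1, 30.2, 37.4 and 73.6 in AGY1611, 18.8, 15.8, 30.9 and 40.2 in AGY1612, 26.1, 26.9, 32.9 and 39 in AGY1613 and 74.2, 11.5, 21.1 and 63.1 in AGY1614 (cultures A to D). At generation 0 the 16 libraries had 297.4 to 355.6 CPM, with a median of 322. The highest generation 10 library, culture A of AGY1614, lay far below the lowest generation 0 library. The NUP60 log2 changes were -2.92 ± 0.35 (SE, adjusted p = 8.52e-08) in AGY1611, -3.6 ± 0.36 (SE, adjusted p = 1.71e-09) in AGY1612, -3.37 ± 0.35 (SE, adjusted p = 1.22e-08) in AGY1613 and -3.02 ± 0.37 (SE, adjusted p = 9.68e-08) in AGY1614. In batch 2 the 18 generation 10 libraries had 0 to 44.6 CPM of NUP60, with a median of 14.4, and the 21 generation 0 libraries 297 to 355 CPM, with a median of 331. NUP60 had its steepest fall in AGY1859, with 0, 7.52 and 6.93 CPM at generation 10 and 297, 337 and 322 CPM at generation 0, a log2 change of -5.91 ± 0.55 (SE, adjusted p = 9.82e-12). In the other 5 strains of batch 2 the NUP60 change was between -4.53 (AGY1863) and -3.57 (AGY1613), and all its calls held without any 1 library.

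MLP1 (YKR095W), a large coiled-coil protein of the basket filaments that takes part in mRNA retention, had a negative change in all 10 comparisons and was called lower in 9. In batch 1 the 16 generation 10 libraries had 5.25 to 28.2 CPM of MLP1, with a median of 10.5, and the 16 generation 0 libraries 92.3 to 159 CPM, with a median of 102. The MLP1 log2 changes were -3.38 ± 0.38 (SE, adjusted p = 4.49e-08) in AGY1611, -2.67 ± 0.37 (SE, adjusted p = 7.61e-07) in AGY1612, -2.8 ± 0.37 (SE, adjusted p = 7.49e-07) in AGY1613 and -3.81 ± 0.43 (SE, adjusted p = 1.98e-08) in AGY1614. No batch 1 library of generation 10 reached a generation 0 value. In batch 2 MLP1 changed by -4.21 ± 0.8 (SE, adjusted p = 0.000102) in AGY1611, -3.97 ± 0.79 (SE, adjusted p = 0.000164) in AGY1860, -3.87 ± 0.77 (SE, adjusted p = 0.000305) in AGY1862 and -3.23 ± 0.75 (SE, adjusted p = 0.00147) in AGY1863. The call in AGY1613, -2.1 ± 0.72 (SE, adjusted p = 0.0484), ended without replicate 2 or 3 of generation 10 or without any 1 generation 0 replicate (adjusted p up to 0.173). The comparison without a call was AGY1859, where MLP1 had 36.6, 32.9 and 5.87 CPM at generation 10 and 86.9, 87 and 86.9 CPM at generation 0. The groups did not overlap there, and the log2 change was -1.8 ± 0.7 (SE, adjusted p = 0.0797).

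MLP2 (YIL149C), the paralog of MLP1, was sparser and less even. In AGY1612 of batch 1 it had 0, 0.658, 0 and 0.665 CPM at generation 10 and 22.4, 23.6, 18.3 and 22.3 CPM at generation 0, a log2 change of -5.66 ± 0.85 (SE, adjusted p = 2.48e-06). MLP2 also fell in AGY1613 (-2.83 ± 0.67 (SE, adjusted p = 0.00133)) and AGY1614 (-4.05 ± 0.88 (SE, adjusted p = 0.000293)). In AGY1611 it had 1.78, 1.92, 13.7 and 21.9 CPM at generation 10 and 14, 24.3, 20.9 and 17.3 CPM at generation 0 (-0.94 ± 0.61 (SE, adjusted p = 0.211)). Culture C lay just below the lowest generation 0 culture there, and culture D within the generation 0 values. In AGY1859 of batch 2 all 3 generation 10 libraries held 0 MLP2 counts, at least 10.2-fold lower than generation 0 against a floor of 3 counts per library (adjusted p = 0.00606). In AGY1860 the MLP2 values at generation 10 were 54, 13.6 and 0 CPM, against 24.6, 21.9 and 18.1 CPM at generation 0, so replicates lay on either side of the start. With the replicate block MLP2 was also called in AGY1863 (-4.31, adjusted p = 0.0442), against -3.7 ± 1.46 (adjusted p = 0.0742) without it.

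The other basket members, NUP1 and NUP2, are FG nucleoporins that bind importin alpha and beta. NUP2 (YLR335W) rose in AGY1611 of batch 1, with 18.9, 15.8, 92.9 and 97.5 CPM at generation 10 and 14.8, 15.3, 18.5 and 18.5 CPM at generation 0, a log2 change of 1.75 ± 0.63 (SE, adjusted p = 0.0226). Cultures C and D carried that difference, and the NUP2 call ended without C or D of generation 10 or A or B of generation 0 (adjusted p up to 0.083). NUP1 (YOR098C) was not called in any comparison. Its highest values were in AGY1859, with 280.3, 138 and 182 CPM at generation 10 and 96.9, 66.4 and 65.5 CPM at generation 0 (1.39 ± 0.53 (SE, adjusted p = 0.0734)), and there the replicate block gave NUP1 a change of 1.36 and an adjusted p of 0.0453. The median log2 change over the 5 basket members was -0.94, -2.67, -2.8 and -3.02 in AGY1611, AGY1612, AGY1613 and AGY1614 of batch 1, against 0.03 to 0.09 over all entries. In batch 2 it was between -3.23 (AGY1863) and 0.08 (AGY1860).

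**Figure D3:**
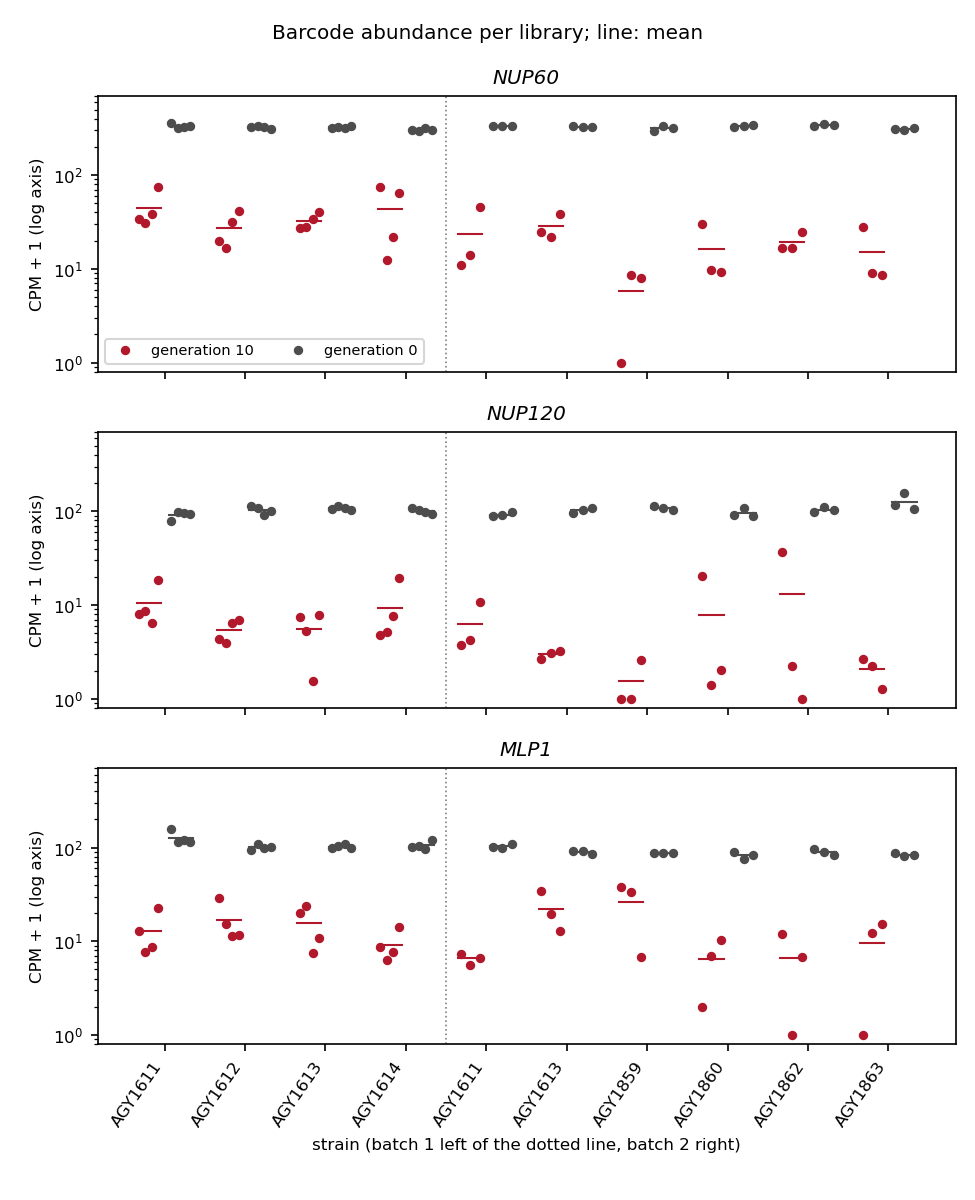
CPM plus 1 of NUP60, NUP120 and MLP1 (log y axis) in every library, with generation 10 left of generation 0 for each strain (x axis, batch 1 left and batch 2 right of the dotted line). NUP60 lies between 11.5 and 74.2 CPM at generation 10 of batch 1 and between 297.4 and 355.6 CPM at generation 0.

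Within the Y complex, members moved in opposite directions. NUP120 (YKL057C), which forms one arm of the Y, had the lowest mean change of the 29 members in either batch, -4.02 ± 0.62 (SD over 4 strains) in batch 1 and -5.18 ± 1.84 (SD over 6 strains) in batch 2. In batch 1 its CPM at generation 10 was 7.1, 7.67, 5.47 and 17.4 in AGY1611, 3.36, 2.96, 5.48 and 5.99 in AGY1612, 6.53, 4.24, 0.547 and 6.92 in AGY1613 and 3.8, 4.2, 6.66 and 18.4 in AGY1614. The 16 generation 0 libraries had 77.2 to 114 CPM of NUP120, with a median of 101, above every generation 10 library. The NUP120 log2 changes were -3.24 ± 0.42 (SE, adjusted p = 4.83e-07), -4.51 ± 0.46 (SE, adjusted p = 2.5e-09), -4.52 ± 0.46 (SE, adjusted p = 6.44e-09) and -3.8 ± 0.48 (SE, adjusted p = 1.27e-07) in AGY1611, AGY1612, AGY1613 and AGY1614.

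In batch 2, NUP120 had 0, 0 and 1.6 CPM at generation 10 of AGY1859 and 114, 108 and 103 CPM at generation 0, a log2 change of -7.48 ± 1.24 (SE, adjusted p = 1.66e-05). The generation 10 group held 3 counts in all, from replicate 3, a ratio of 187-fold lower (95% exact binomial interval 63.7 to 906), and at least 55.7-fold lower without that replicate. Such intervals, here and below, cover counting error only and not the spread between replicates. In AGY1863 it changed by -7.07 ± 1.2 (SE, adjusted p = 1.92e-05), in AGY1613 by -5.62 ± 1.12 (SE, adjusted p = 0.000403) and in AGY1611 by -4.12 ± 1 (SE, adjusted p = 0.00245). In AGY1860 the NUP120 values at generation 10 were 19.3, 0.4 and 1.02 CPM, against 91.3, 108 and 88.3 CPM at generation 0. Replicate 1 stood above the others there, and the change was -3.74 ± 0.96 (SE, adjusted p = 0.00351) with it. Without it 2 counts remained, a ratio of 164-fold lower (95% interval 45.4 to 1360). AGY1862 had the same layout, with 35.5, 1.22 and 0 CPM of NUP120 at generation 10 and 96.9, 109.5 and 102 CPM at generation 0. Its change was -3.02 ± 0.92 (SE, adjusted p = 0.0172) over all replicates. Without replicate 1 a single count remained, 343-fold lower (95% interval 61.4 to 13500), and the call ended without replicate 2 or 3 of generation 10 (adjusted p of 0.0851 and 0.0541).

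NUP145 (YGL092W), whose product is cleaved into an FG nucleoporin and a Y complex subunit, had a negative log2 change in all 10 comparisons and was called in 5. In AGY1611 of batch 1 it had 1.78, 0.959, 1.82 and 5.21 CPM at generation 10 and 21.9, 29.2, 22.7 and 26.7 CPM at generation 0, a log2 change of -3.3 ± 0.89 (SE, adjusted p = 0.0031). In AGY1614 the NUP145 change was -3.21 ± 1 (SE, adjusted p = 0.00816). Without culture A of generation 10 a single NUP145 count remained, 86.1-fold lower (95% interval 15.4 to 3400). In batch 2 NUP145 fell in AGY1863 (-6.18 ± 1.64 (SE, adjusted p = 0.00604)), AGY1611 (-4.26 ± 1.38 (SE, adjusted p = 0.0241)) and AGY1860 (-3.79 ± 1.34 (SE, adjusted p = 0.0364)). The AGY1863 group held 1 NUP145 count at generation 10, 99.2-fold lower (95% interval 17.6 to 3940). The AGY1611 call ended without replicate 1 or 2 of generation 10 or replicate 2 of generation 0 (adjusted p up to 0.0979). The AGY1860 call of NUP145 ended without replicate 1 or 3 of either generation (up to 0.129), and all its 7 counts at generation 10 lay in replicate 2, without which it was at least 6.81-fold lower.

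NUP133 (YKR082W), a stalk protein of the Y, fell by 1.48 on the log2 scale in AGY1612 of batch 1 (adjusted p = 0.00265), where it had 90.6, 93.8, 112 and 132 CPM at generation 10 and 286, 289, 309.6 and 313 CPM at generation 0, with no overlap. It also fell in AGY1614 (-1.28 ± 0.4 (SE, adjusted p = 0.00817)). With the cultures summed neither of these NUP133 calls stayed (adjusted p = 0.136 in AGY1612). In AGY1611 NUP133 had 62.2, 71.9, 240.0 and 298 CPM at generation 10 and 340.2, 329.6, 332 and 329.6 CPM at generation 0, with A and B far below C and D. That NUP133 call (-0.98 ± 0.38 (SE, adjusted p = 0.0362)) ended without any 1 generation 0 culture or A or B of generation 10 (adjusted p up to 0.135). The NUP133 call in AGY1860 of batch 2 (-0.99 ± 0.34 (SE, adjusted p = 0.0328)) ended without any 1 of its 6 libraries (up to 0.1).

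SEH1, NUP84 and NUP85, the remaining Y complex members, were called only higher. SEH1 (YGL100W), which is shared with a complex at the vacuole membrane, had a positive change in all 10 comparisons. In AGY1614 it had 549.5, 485, 375 and 405 CPM at generation 10 and 243, 228, 244 and 222 CPM at generation 0, a log2 change of 0.95 ± 0.11 (SE, adjusted p = 2.78e-08). In AGY1612 SEH1 had 379.9, 367, 381 and 399.7 CPM at generation 10 and 244, 243, 238 and 233 CPM at generation 0, a change of 0.67 ± 0.11 (SE, adjusted p = 7.07e-06). The generations did not overlap in either strain, and the cultures of each group were close in AGY1612. In AGY1614 the log2 ratios were 1.08 to 1.17 in A and B and 0.62 to 0.87 in C and D. The change of SEH1 was 0.19 ± 0.11 (SE, adjusted p = 0.152) in AGY1611 and 0.12 ± 0.11 (SE, adjusted p = 0.388) in AGY1613. In batch 2 the replicate block called SEH1 in AGY1859 (0.61, adjusted p = 0.0404) and AGY1860 (0.6, adjusted p = 0.0314), where the test without it gave adjusted p of 0.0787 and 0.0571.

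NUP84 (YDL116W), for which the complex was named, rose in AGY1614 (0.87 ± 0.24 (SE, adjusted p = 0.00294)), with 530.5, 596, 583 and 510.3 CPM at generation 10 and 316, 309, 299 and 293 CPM at generation 0, and in AGY1612 (0.67 ± 0.24 (SE, adjusted p = 0.0209)). In AGY1862 of batch 2 NUP84 had 386, 995 and 431 CPM at generation 10 and 291, 302 and 293 CPM at generation 0 (1.02 ± 0.3 (SE, adjusted p = 0.0138)), and without replicate 2 of generation 10 the change was 0.47 (adjusted p = 0.334). NUP85 (YJR042W), the partner of SEH1 in the Y, was called higher in AGY1614 (1.47 ± 0.4 (SE, adjusted p = 0.00265)), where it had 171, 189, 1300.0 and 731 CPM at generation 10 and 196, 205, 201 and 259.7 CPM at generation 0. Cultures A and B lay below the lowest generation 0 culture there, and without culture C of generation 10 the NUP85 change was 0.72 (adjusted p = 0.0879). In AGY1611 the NUP85 call of batch 1 (0.99 ± 0.39 (SE, adjusted p = 0.038)) ended without any 1 generation 0 culture or B or C of generation 10 (up to 0.071), and that of batch 2 (0.84 ± 0.3 (SE, adjusted p = 0.0417)) without any 1 library other than replicate 1 of generation 10 (up to 0.145).

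Changes of the inner ring genes were mostly small. NIC96 (YFR002W), which anchors the FG channel trimer to the scaffold, had a positive log2 change in all 10 comparisons. In AGY1612 it had 196, 236, 334 and 291 CPM at generation 10 and 138, 136, 185 and 174 CPM at generation 0, a change of 0.74 ± 0.17 (SE, adjusted p = 0.000689). NIC96 also rose in AGY1611 (0.73 ± 0.17 (SE, adjusted p = 0.000877)). Its AGY1614 call (0.5 ± 0.17 (SE, adjusted p = 0.0157)) ended without culture B of generation 10 (adjusted p = 0.0668) and the sign turned under library size scaling (-0.03). Its AGY1863 call (0.7 ± 0.24 (SE, adjusted p = 0.0343)) ended without any 1 generation 0 replicate or replicate 2 or 3 of generation 10 (up to 0.11).

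ASM4 and NUP53, related inner ring proteins that bind the nuclear membrane, went different ways in AGY1611. ASM4 (YDL088C) rose there (0.68 ± 0.16 (SE, adjusted p = 0.000932)), with 496, 444, 347 and 336 CPM at generation 10 and 250.2, 251, 252 and 259 CPM at generation 0. NUP53 (YMR153W) fell there (-0.78 ± 0.21 (SE, adjusted p = 0.0037)), with 166, 163, 184 and 233 CPM at generation 10 and 326, 317, 316 and 322 CPM at generation 0, and its change was negative in all 10 comparisons. The generations did not overlap for either gene in AGY1611. With the cultures summed neither was called there (adjusted p of 0.0735 for ASM4 and 0.16 for NUP53). ASM4 was also called in AGY1614 (0.6 ± 0.16 (SE, adjusted p = 0.00276)), with a change of 0.37 without culture D of generation 10. The NUP53 calls in AGY1612 (-0.53 ± 0.21 (SE, adjusted p = 0.0462)) and AGY1613 (-0.55 ± 0.21 (SE, adjusted p = 0.0404)) ended without any 1 generation 0 culture or C or D of generation 10 (adjusted p up to 0.156 and 0.189), and the AGY1613 change was -0.36 and -0.35 without C and without D.

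NUP170 (YBL079W), a scaffold protein of the inner ring, was among the rarest plasmids. In AGY1611 of batch 1 it had 0, 0, 0 and 1.74 CPM at generation 10 and 3.99, 7.19, 7.08 and 7.08 CPM at generation 0 (-3.53 ± 1.05 (SE, adjusted p = 0.00687), and at least 4.15-fold lower without culture D of generation 10, which held its only counts). In batch 2 all 3 generation 10 libraries of AGY1611, AGY1613 and AGY1862 held 0 NUP170 counts, at least 2.23-fold, 2-fold and 3-fold lower than generation 0 (adjusted p of 0.0626, 0.0891 and 0.0408). The AGY1862 call of NUP170 ended without any 1 of its 6 libraries (up to 0.101). In AGY1859 NUP170 had 39.1, 0 and 0 CPM at generation 10 and 7.18, 5.37 and 4.3 CPM at generation 0, so 1 replicate lay above the start while the others held no count. NUP192 (YJL039C), the largest inner ring protein, was not called, and its changes were between -1.2 and 0.84.

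Of the membrane ring genes, NDC1 was called lower in 1 strain, POM34 in 2, both in batch 1, and POM152 in none. NDC1 (YML031W), a transmembrane protein that also sits at the spindle pole body, fell in AGY1614, with 17.1, 1.57, 1.11 and 5.26 CPM at generation 10 and 55.4, 57.5, 61.2 and 54.8 CPM at generation 0, a log2 change of -3.49 ± 0.46 (SE, adjusted p = 2.94e-07). In the other 9 comparisons NDC1 was not called, with changes between -0.54 and 0.83. POM34 (YLR018C) fell in AGY1612, with 142, 109.6, 206 and 209.8 CPM at generation 10 and 438, 438, 449.9 and 431 CPM at generation 0, a log2 change of -1.4 ± 0.18 (SE, adjusted p = 2.24e-07). The generations did not overlap in either case. POM34 was also called in AGY1614 (-0.47 ± 0.18 (SE, adjusted p = 0.0294)), but not without C or D of generation 10 or A or B of generation 0 (adjusted p up to 0.158), and without C of generation 10 its change was -0.29. With the replicate block POM34 was called in AGY1863 (-0.68, adjusted p = 0.0441), against -0.65 ± 0.27 (SE, adjusted p = 0.0972) without it. POM152 (YMR129W) had 146, 139.5, 15.6 and 10.5 CPM at generation 10 of AGY1614 and 30.6, 27.6, 25.2 and 22.8 CPM at generation 0, with A and B above and C and D below the start (1.57 ± 0.68 (SE, adjusted p = 0.0527)).

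Among the 5 FG channel genes, NSP1 and NUP100 were both called lower in AGY1611 and higher elsewhere, NSP1 in 2 strains and NUP100 in 1. NSP1 (YJL041W), the central component of the channel trimer, fell in AGY1611, with 2.96, 0.48, 1.82 and 8.33 CPM at generation 10 and 29.9, 34.6, 35.8 and 32.7 CPM at generation 0, a log2 change of -3.23 ± 0.43 (SE, adjusted p = 7.23e-07). It was called higher in AGY1612 (1.01 ± 0.38 (SE, adjusted p = 0.0311)), with 94, 73.1, 52.3 and 46.5 CPM at generation 10 and 34.4, 33.7, 33 and 30.3 CPM at generation 0, and in AGY1614 (0.9 ± 0.38 (SE, adjusted p = 0.0497)). In all 3 strains the generations did not overlap for NSP1. Both higher calls of NSP1 ended without any 1 generation 0 culture or A or B of generation 10 (adjusted p up to 0.0995 and 0.125). In batch 2 NSP1 had 6.39, 2.61 and 6.49 CPM at generation 10 of AGY1611 and 36.1, 34.6 and 35.1 CPM at generation 0 (-2.78 ± 0.95 (SE, adjusted p = 0.033)), a call that ended without any 1 of the 6 libraries (up to 0.129).

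NUP100 (YKL068W), a GLFG nucleoporin of the channel, also fell in AGY1611, with 1.18, 2.4, 2.28 and 4.86 CPM at generation 10 and 19.9, 27.1, 29.3 and 29.9 CPM at generation 0 (-3.25 ± 0.52 (SE, adjusted p = 1.07e-05)). It was called higher in AGY1613 (1.22 ± 0.45 (SE, adjusted p = 0.0319)), with 88.7, 89.1, 34.5 and 53.9 CPM at generation 10 and 34.5, 23.4, 29.6 and 26.8 CPM at generation 0, but not without A or B of generation 10 or B, C or D of generation 0 (adjusted p up to 0.0828). In AGY1613 the culture C value of NUP100 at generation 10 was level with the highest generation 0 culture, while the AGY1611 groups lay apart. NUP116 (YMR047C), the paralog of NUP100, fell in AGY1611 (-1.05 ± 0.34 (SE, adjusted p = 0.0116)), with 31.4, 20.1, 17.8 and 39.2 CPM at generation 10 and 51.9, 59.8, 59.2 and 53.8 CPM at generation 0. With the cultures summed the NUP116 call was lost (adjusted p = 0.254).

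NUP49 (YGL172W), an FG partner of NSP1, had the most higher calls of any member. In AGY1611 of batch 1 it had 629, 706, 324 and 359 CPM at generation 10 and 251, 242, 240.4 and 241 CPM at generation 0, a log2 change of 1.05 ± 0.21 (SE, adjusted p = 0.000144). NUP49 rose in AGY1612 (0.91 ± 0.21 (SE, adjusted p = 0.000613)) and AGY1613 (0.94 ± 0.21 (SE, adjusted p = 0.000605)), and was 0.24 ± 0.21 (SE, adjusted p = 0.341) in AGY1614. With the cultures summed no NUP49 call of batch 1 stayed (adjusted p of 0.0513 in AGY1611 and 0.0797 in AGY1612). In batch 2 the NUP49 change was 1.02 ± 0.28 (SE, adjusted p = 0.00818) in AGY1611, and 0.68 (adjusted p = 0.123) without replicate 2 of generation 10. Its call in AGY1863 (0.92 ± 0.28 (SE, adjusted p = 0.0169)) ended without replicate 2 of generation 10 or replicate 1 or 3 of generation 0 (up to 0.0739). In AGY1859 the direction was the other way, with 178, 164 and 77.3 CPM of NUP49 at generation 10 and 241, 214 and 223 CPM at generation 0, all 3 below the start. That change, -0.7 ± 0.28 (SE, adjusted p = 0.0966), was -0.77 with the replicate block (adjusted p = 0.0201). NUP57 (YGR119C), the other partner of NSP1, was never called, and its lowest adjusted p was 0.0959 (AGY1612, -1.74 ± 0.84).

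On the cytoplasmic face, NUP82 (YJL061W), which holds the export platform to the pore, fell in AGY1611, with 138, 147, 158 and 167 CPM at generation 10 and 293, 267, 251 and 247 CPM at generation 0 (-0.79 ± 0.16 (SE, adjusted p = 0.000233)). It was called higher in AGY1613 (0.42 ± 0.16 (SE, adjusted p = 0.0383)) and AGY1614 (0.41 ± 0.16 (SE, adjusted p = 0.0363)). With the cultures summed none of these NUP82 calls stayed (adjusted p = 0.097 in AGY1611). The AGY1613 call of NUP82 ended without any 1 generation 0 culture or A or B of generation 10 (adjusted p up to 0.173). The AGY1614 call ended without A, B or C of either generation (up to 0.0801), and its sign turned under library size scaling (-0.11). With the replicate block NUP82 was called in AGY1863 (0.75, adjusted p = 0.0482), against 0.86 ± 0.32 (SE, adjusted p = 0.0573) without it. NUP159 (YIL115C), an FG partner of NUP82 that binds the mRNA helicase DBP5, fell in AGY1611, with 6.51, 2.4, 37.8 and 41.6 CPM at generation 10 and 90.0, 80.0, 88.1 and 66.8 CPM at generation 0 (-1.86 ± 0.57 (SE, adjusted p = 0.0089)). With the cultures summed the NUP159 call was lost (adjusted p = 0.187).

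GLE2 (YER107C), an mRNA export factor that binds NUP116, had 331, 813, 228 and 163 CPM at generation 10 of AGY1614 and 171, 159, 175 and 159 CPM at generation 0 (1.23 ± 0.4 (SE, adjusted p = 0.0114)). Culture B stood above all others, and without culture B of generation 10 the GLE2 change was 0.53 (adjusted p = 0.251). NUP42 (YDR192C), an FG nucleoporin that binds GLE1, held 0 counts in all 3 generation 10 libraries of AGY1860 and of AGY1863, at least 2.49-fold and 2.11-fold lower than generation 0 (adjusted p of 0.0259 and 0.0393). Those NUP42 calls ended without any 1 generation 10 replicate of AGY1860 (up to 0.0851) and without any 1 of the 6 libraries of AGY1863 (up to 0.123). In AGY1611 of batch 1 NUP42 had 55.1, 40.3, 0 and 1.39 CPM at generation 10 and 5.98, 5.24, 4.33 and 4.2 CPM at generation 0, with A and B above the start and C and D below it (2.28 ± 1.05 (SE, adjusted p = 0.0761)).

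Of the member import receptor genes, KAP95 and SRP1, only KAP95 (YLR347C) had counts. KAP95 fell in AGY1611 of batch 1, with 1.18, 2.88, 3.19 and 4.86 CPM at generation 10 and 24.8, 29.1, 23.4 and 25.3 CPM at generation 0, a log2 change of -3.03 ± 0.46 (SE, adjusted p = 5.2e-06), and in AGY1613 (-1.79 ± 0.43 (SE, adjusted p = 0.00148)). In AGY1612 KAP95 had 28.9, 27.6, 20.4 and 31.6 CPM at generation 10 and 27, 24.8, 23.9 and 26.8 CPM at generation 0 (0.08 ± 0.41 (SE, adjusted p = 0.893)), and the groups overlapped. In AGY1860 of batch 2 KAP95 had 0, 0.4 and 1.02 CPM at generation 10 and 24, 12.5 and 13.7 CPM at generation 0 (-5.29 ± 1.74 (SE, adjusted p = 0.023)), with 2 counts in all at generation 10, 46.4-fold lower (95% interval 12.7 to 386). That call ended without replicate 1 or 2 of generation 10 or replicate 1 of generation 0 (adjusted p up to 0.0949).

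At generation 5 few members were called. In AGY1860, 2 were called, NUP60 lower and SEH1 higher, where all entries had 4.78% lower, 2.53% higher and 7.32% either way, and 3 with the replicate block (11.1% of all entries), which added NUP120 (-3.05, adjusted p = 0.0229). No member was called by edgeR in AGY1611, AGY1613 or AGY1861, where 0%, 0% and 2.58% of all entries were called. An unadjusted p under 0.05 was reached by 0, 1 and 0 members in these strains, and DESeq2 called 0 in each. In AGY1860 NUP60 had 325, 331 and 339 CPM at generation 0, 60.0, 39.7 and 46.2 CPM at generation 5 and 28.9, 8.8 and 8.19 CPM at generation 10. The generation 5 change of NUP60 there was -2.78 ± 0.45 (SE, adjusted p = 4.57e-05). In AGY1611 NUP60 had 331, 334 and 337 CPM at generation 0, 131, 205 and 271 CPM at generation 5 and 10.0, 13.1 and 44.6 CPM at generation 10. In all 3 strains with 3 times, each replicate of NUP60 was lower at generation 5 than at generation 0, and lower again at generation 10. In AGY1611, AGY1613 and AGY1861 the generation 5 changes of NUP60 were -0.74 ± 0.42, -0.99 ± 0.42 and -0.71 ± 0.42 (adjusted p of 0.999, 0.769 and 0.776).

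NUP120 and MLP1 had negative generation 5 changes in all 4 strains without passing the test. For NUP120 they were -0.81 ± 0.85 (SE, adjusted p = 0.999) in AGY1611, -1.32 ± 0.86 (SE, adjusted p = 0.998) in AGY1613, -2.43 ± 0.91 (SE, adjusted p = 0.0928) in AGY1860 and -1 ± 0.87 (SE, adjusted p = 0.926) in AGY1861. For MLP1 they were -0.85 ± 0.68 (SE, adjusted p = 0.999) in AGY1611, -0.46 ± 0.67 (SE, adjusted p = 0.998) in AGY1613, -2.16 ± 0.71 (SE, adjusted p = 0.0542) in AGY1860 and -0.89 ± 0.69 (SE, adjusted p = 0.908) in AGY1861. SEH1 in AGY1860 had 260.3, 246 and 242 CPM at generation 0, 363, 488 and 472 CPM at generation 5 and 312, 432 and 406 CPM at generation 10. Its generation 5 change (0.82 ± 0.24 (SE, adjusted p = 0.0251)) was not called without any 1 generation 0 replicate or replicate 2 or 3 of generation 5 (adjusted p up to 0.0955). AGY1861 minus AGY1860 in the generation 5 change was not called for any member by edgeR (1.53% of all entries), with 1 unadjusted p under 0.05 and 1 DESeq2 call.

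**Figure D4:**
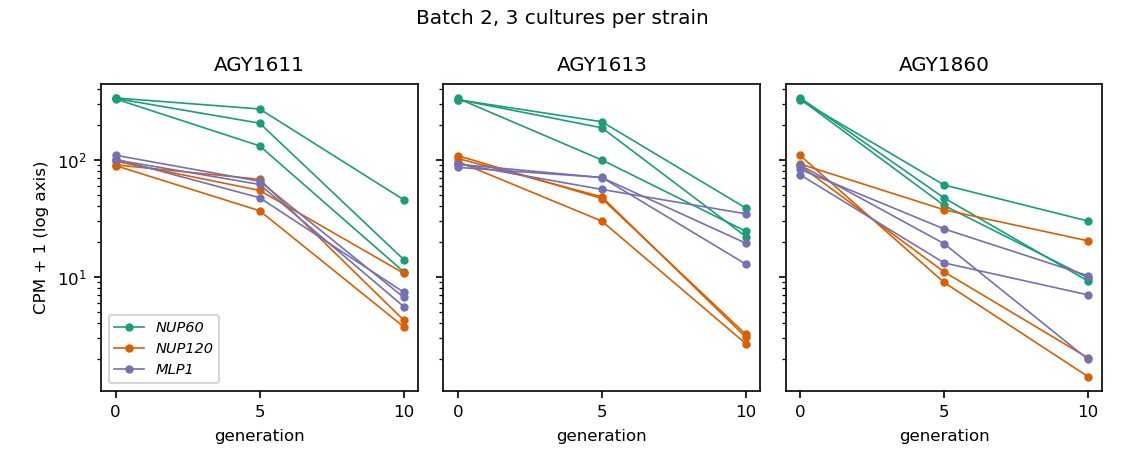
CPM plus 1 (log y axis) of NUP60, NUP120 and MLP1 at generations 0, 5 and 10 in the batch 2 strains measured at 3 times, with 1 line per replicate. At generation 5 the lowest NUP60 value is 39.7 CPM in AGY1860 and 131 CPM in AGY1611.

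How far the strains differed was tested directly. In batch 1, 11 of 29 members were called in the joint test of the generation 10 change over 4 strains, where 48.1% of all entries were called. With the cultures summed, 1 was called, NDC1 (adjusted p = 0.0237), and 1.37% of all entries. The adjusted p was 4.16e-06 for NSP1, 6.91e-06 for NDC1, 3.58e-05 for NUP100, 0.000124 for SEH1 and 0.000137 for POM34. It was 0.000163 for NUP82, 0.00108 for KAP95, 0.00339 for MLP2, 0.0105 for NUP159, 0.0345 for NUP116 and 0.046 for NIC96. The NUP116 call ended without A of AGY1614 generation 0, B, C or D of AGY1611 generation 0 or B or C of AGY1611 generation 10 (up to 0.084). The NIC96 call ended without any 1 of 21 of the 32 libraries, in all 4 strains (up to 0.113). NUP60, NUP120 and MLP1 were not called in the joint test, with adjusted p of 0.522, 0.156 and 0.218.

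Between pairs of strains, 5 members were lower and 8 higher for AGY1614 minus AGY1611 (all entries: 17.1% lower, 12.8% higher, 30% either way), and 2 lower and 7 higher for AGY1612 minus AGY1611 (16.1%, 7.58% and 23.7%). For AGY1613 minus AGY1611, 1 was lower and 4 higher (10.3%, 9.62% and 20%). Fewer differed for AGY1613 minus AGY1612 (3 lower and 1 higher, with 6.15%, 12.8% and 19% of all entries), AGY1614 minus AGY1613 (2 lower and 1 higher, with 14.9%, 12% and 26.9%) and AGY1614 minus AGY1612 (1 lower and 1 higher, with 4.25%, 8.28% and 12.5%). The NSP1 difference was 4.24 ± 0.57 (SE, adjusted p = 8.03e-06) for AGY1612 minus AGY1611 and 4.12 ± 0.58 (SE, adjusted p = 5.9e-06) for AGY1614 minus AGY1611. NDC1 differed by -4.32 ± 0.58 (SE, adjusted p = 5.85e-06) for AGY1614 minus AGY1613, and POM34 by -1.41 ± 0.25 (SE, adjusted p = 0.00018) for AGY1612 minus AGY1611. NUP100 differed by 4.47 ± 0.69 (SE, adjusted p = 4.6e-05) for AGY1613 minus AGY1611, and SEH1 by 0.83 ± 0.15 (SE, adjusted p = 0.000189) for AGY1614 minus AGY1613. With the cultures summed, 3 of the 36 calls between pairs were kept, NSP1 (adjusted p = 0.039) and NDC1 (0.014) for AGY1614 minus AGY1611 and NDC1 (0.0111) for AGY1614 minus AGY1613, where 2.55% and 1.22% of all entries were called. The other differences named here were then not called, with adjusted p of 0.0914 for NSP1, 0.159 for POM34, 0.211 for NUP100 and 0.169 for SEH1. These pairs share strains, and AGY1611 stands in the 3 with its name.

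In batch 2 the joint test over 6 strains called 1 member, NUP49 (adjusted p = 0.0287), where 6.22% of all entries were called. An unadjusted p under 0.05 was reached by 9 members, and DESeq2 called 5. NUP49 differed by -1.71 ± 0.4 (SE, adjusted p = 0.0126) for AGY1859 minus AGY1611, where 0.895% of all entries were called lower (1.73% either way), and by -1.37 (adjusted p = 0.0856) without replicate 2 of AGY1611 generation 10. The joint call of NUP49 ended without any 1 generation 0 replicate of AGY1859 or replicate 3 of its generation 10 (up to 0.098).

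**Figure D5:**
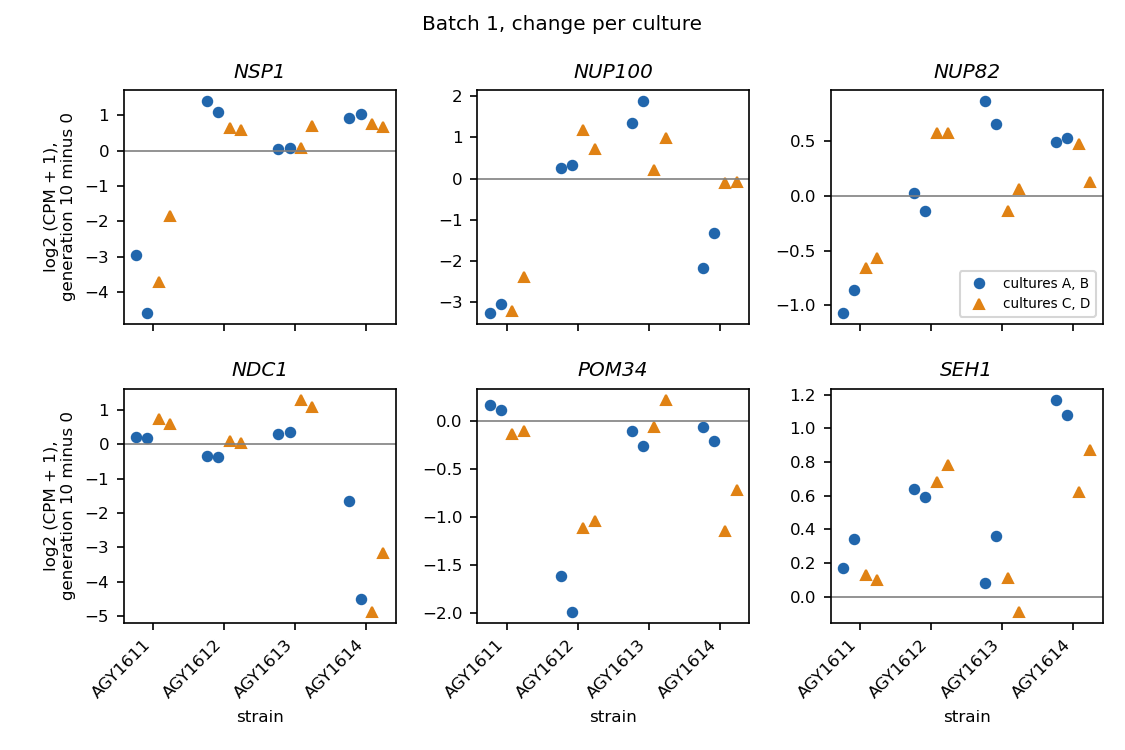
Log2 ratio of CPM plus 1 at generation 10 over generation 0 (y axis) in each culture of the 4 batch 1 strains (x axis), for NSP1, NUP100, NUP82, NDC1, POM34 and SEH1. Circles are cultures A and B and triangles C and D, and the mean of NDC1 is lowest in AGY1614 and that of POM34 in AGY1612.

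As over all entries, cultures of a strain were not alike for many members. In batch 1 the log2 ratios of A and B did not overlap those of C and D for 20, 23, 23 and 18 of 29 members in AGY1611, AGY1612, AGY1613 and AGY1614, against 78.8%, 74.6%, 77.9% and 68.8% of all entries. The pairs had opposite signs for 5, 6, 8 and 5 members, against 28.4%, 17.3%, 26.4% and 18.8% of all entries. For NUP42 in AGY1611 the ratios were 2.73 to 3.0 in A and B and -2.42 to -1.12 in C and D. For POM152 in AGY1614 they were 2.22 to 2.3 in A and B and -1.05 to -0.66 in C and D. NUP60, NUP120 and MLP1 were negative in all 16 cultures, with the ratios nearest 0 at -2.01, -2.27 and -1.68.

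By systematic name, 11 of the 29 tested members lie on chromosomes IV, VII, XII or XV. They are NUP84, ASM4 and NUP42 on IV, NUP145, SEH1, NUP49 and NUP57 on VII, POM34, NUP2 and KAP95 on XII, and NUP1 on XV. NUP60 lies on chromosome I, NUP120 and MLP1 on XI and MLP2 on IX. Gene position was not set against an extra chromosome, since the labels used here do not say which strain has which.

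The wider transport machinery, a list of 39 genes for karyopherins, the Ran cycle, mRNA export and pore assembly, had 29 tested genes in batch 1 and 28 in batch 2. Batch 1 calls of this list are given without summing the cultures. In AGY1611, AGY1612, AGY1613 and AGY1614 of batch 1, 7, 12, 9 and 8 were called lower (all entries: 23.8%, 25.9%, 21.3% and 28.3%) and 8, 4, 7 and 6 higher (all entries: 24%, 17.1%, 19.5% and 24.8%), with median log2 changes of 0, -0.3, -0.13 and -0.13. LOS1, the tRNA exporter, fell with log2 changes of -0.71, -2.29, -1.08 and -2.03 in these 4 strains, and GFD1, an mRNA export factor, with -2.71, -2.39, -1.39 and -1.35. PER33, a pore-associated membrane protein, fell with changes of -2.32, -2.94, -1.45 and -3.01. GSP2, a copy of the GTPase Ran, rose with changes of 0.8, 0.56, 0.52 and 0.76, and POM33, the paralog of PER33, with 0.58, 0.4, 0.55 and 0.7. In batch 2, LOS1 (-1.44 to -0.8, adjusted p up to 0.0478) and PER33 (-2.95 to -1.07, up to 0.0368) fell in all 6 strains, while GFD1 was called lower in 2 of 6, POM33 higher in 1 of 6 and GSP2 in none, with GSP2 changes between -0.16 and 0.63. Karyopherins had 6 tested genes, of which 3, 4, 4 and 2 were called lower and 0, 0, 0 and 1 higher in the 4 strains of batch 1. In AGY1611, AGY1613, AGY1859, AGY1860, AGY1862 and AGY1863 of batch 2, 2, 1, 2, 2, 3 and 2 of the 6 were lower and 0 higher, where all entries had 11.3%, 7.01%, 9.35%, 14.7%, 11.5% and 13.5% lower.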

How the data were processed

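Per batch, the authors deposited a table of raw barcode counts, whole numbers with 1 row per plasmid. The step that assigned reads to barcodes is not given in the sources used here, and per the labels barcodes were amplified by PCR, with no molecular identifiers named, so intervals and floors cover counting error only. Members were found by systematic name and gene symbols taken from the RefSeq gene table of assembly R64.

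All libraries of a batch were fitted together with edgeR 4.0.16 (limma 3.58.1, R 4.3.3): the empty vector left out, library factors by TMM, entries kept by filterByExpr (minimum count 10), a coefficient for each group of strain and generation, quasi-likelihood F tests, and Benjamini-Hochberg adjustment over all 4615 (batch 1) or 4579 (batch 2) entries at 0.05. Strain differences were contrasts of that fit. The replicate block, summed cultures, leaving out 1 library, library size scaling, no count filter, DESeq2 1.42.0 and fits on the strains compared were the alternatives. Per-culture log2 ratios used CPM plus 1. Where all libraries of a group held 0 counts, a fold is a lower bound at 3 counts per library, and where a group held 1 to 3 counts in all, the ratio of pooled counts per library total has an exact conditional binomial interval. Replicate numbers pair the samples in AGY1859 (correlations of same-numbered deviations 0.206 to 0.536), AGY1860 (0.173 to 0.304 at generation 10) and AGY1863 (0.218 to 0.416), where every pair exceeded 0.1. The fit was tested on simulated counts with known changes. Those libraries were drawn independently, so that test could not check the p where cultures lie in closer pairs, as in batch 1. Tables and figures used Python 3.11.15, pandas 2.3.3 and matplotlib 3.10.9.

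Every member is accounted for. Full values went to members called in 1 direction in every strain of a batch, the lowest and highest mean change of each subcomplex, members called in opposite directions, the leading joint strain differences and the calls at generation 5. Other members are named where they were called, which was chosen after their values were seen. The members, the transport list and the tests were chosen with earlier results of these data known.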

Additional observations from a re-analysis of the deposited data

Results flagged for a closer look

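A culture far from the others is flagged by chance in about 1 in 20 groups of 4 independent values. Batch 1 cultures lie in closer pairs, so that rate need not hold here. In batch 1, 4 of 116 groups of 4 cultures held a culture far from the others. They were NSP1 in culture D of AGY1613 (log2 ratio 0.69), NUP82 in culture D of AGY1614 (0.13), MLP1 in culture D of AGY1611 (-2.33) and KAP95 in culture A of AGY1614 (-0.3). The joint test of the generation 10 change over the 4 strains of batch 1 called 11 of 29 members, where 48.1% of all entries were called. These members were NSP1 (adjusted p = 4.16e-06), NDC1 (6.91e-06), NUP100 (3.58e-05), SEH1 (0.000124), POM34 (0.000137), NUP82 (0.000163), KAP95 (0.00108), MLP2 (0.00339), NUP159 (0.0105), NUP116 (0.0345) and NIC96 (0.046). With the cultures summed, NDC1 alone was called (adjusted p = 0.0237). In batch 2 the joint test over 6 strains called NUP49 (adjusted p = 0.0287), where 6.22% of all entries were called.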

How the results depend on the processing

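For the 89 member changes that were called, 1113 of 1316 values under the alternatives kept their direction and call, 201 lost the call and 2 reversed. For the 317 not called, 95 of 4264 values gained a call and 4 were called with the sign turned. Of the values for the 12 joint calls, 437 of 483 kept the call and 46 lost it, and 39 of 1920 for the 46 joint results not called gained one. For the 37 called strain differences 726 of 882 kept it and 156 lost it, and 67 of 6575 for the 311 not called gained one. With cultures summed to 2 samples per group, the members called in batch 1 numbered 6, 6, 3 and 6 in AGY1611, AGY1612, AGY1613 and AGY1614 and 1 in the joint test. Why the other calls were lost was not tested. With the replicate block the counts became 6 in AGY1859 and 1 for AGY1861 minus AGY1860 at generation 5. Elsewhere the numbers are not shown to pair the samples. In AGY1611 of batch 2 the block added NUP170 (adjusted p = 0.0461, with 0 counts at generation 10), NUP133 (-1.02) and NUP53 (-0.56). The count there became 10. In AGY1613 of batch 2 it added NUP49 (adjusted p = 0.0412) while MLP1 was lost (0.0575), and in AGY1862 it added NSP1 (0.0249). Batch 1 calls lost under the block were NUP2 in AGY1611 (adjusted p = 0.141) and NSP1 in AGY1612 (0.0906). NUP100 (0.0564) and NUP82 were lost in AGY1613, and NSP1, NUP82, NUP85 and GLE2 in AGY1614. In the joint test of batch 1 the block added NUP84 (0.0288) and lost MLP2, NUP116 and NIC96. DESeq2 gave 6 in AGY1859, 4 at generation 5 of AGY1860, 1 for AGY1861 minus AGY1860 and 5 in the joint test of batch 2. Fits on the strains compared gave 7 in AGY1613 of batch 2, 2 in AGY1862 and 4 at generation 5 of AGY1861. Library size scaling gave 1 at generation 5 of AGY1860, 10 at generation 5 of AGY1861 and 3 for AGY1861 minus AGY1860. For DESeq2, the fits on the strains compared and library size scaling, the share of all entries called is not given here. Those member counts therefore stand without that background. Library size scaling moved the median log2 change of all entries to -0.49, against 0.03 with TMM, in AGY1614, and to -0.88, against 0, at generation 5 of AGY1861. The reversed values all came with that scaling: NIC96 (-0.03) and NUP82 (-0.11) in AGY1614, and NIC96 (-0.64), NUP49 (-0.84), POM34 (-0.68) and NUP53 (-0.86) at generation 5 of AGY1861. Other causes were not tested.

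Without 1 library, batch 1 counts were 15 to 19, 10 to 12, 6 to 9 and 12 to 16 in AGY1611, AGY1612, AGY1613 and AGY1614, and 9 to 14 in the joint test. In batch 2 they were 3 to 8 in AGY1611, 2 to 4 in AGY1613, 3 to 6 in AGY1859, 4 to 6 in AGY1860, 3 to 6 in AGY1862 and 4 to 7 in AGY1863. They were 0 in AGY1611, AGY1613 and AGY1861 and 1 to 2 in AGY1860 at generation 5, 0 to 1 for AGY1861 minus AGY1860, and 0 to 3 in the joint test of batch 2. The fixed floor of 3 counts per library left small lower bounds for NUP42 and NUP170, the rarest members at generation 0.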
